A study of Rattus norvegicus with 9 samples.

Results

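The comparison described here sets the 6 libraries of rat pXEN cells grown without serum against the 3 libraries grown with it, and asks which genes moved the same way in both serum-free media. It uses 9 of the 9 RNA-seq libraries of the series. The cells are primitive extraembryonic endoderm stem cells of a single line, RX1, from the WKY strain, so that the results hold for 1 line. T, the serum medium, was DMEM/MCDB with 2% FBS (fetal bovine serum), the synthetic glucocorticoid dexamethasone at 0.5 µM, LA-BSA, ITS, ascorbic acid, β-mercaptoethanol and Pdgf, Egf and Lif at 10 ng/ml each, used on plates coated with fibronectin at 100 ng/ml. LPE was DMEM/F12 with Neurobasal, the supplements N2 and B27, β-mercaptoethanol and the same 3 factors at 10 ng/ml each, used on collagen I at 10 µg/ml. CPE shared that base, coating, Pdgf and Egf, and had Chir99021, an inhibitor of the kinase Gsk3, at 1 µM in place of Lif. What LPE and CPE share against T is the loss of serum, dexamethasone, LA-BSA, ITS and ascorbic acid and the gain of N2 and B27. The basal medium and the coating differed too, and these changes cannot be told apart. Loss and gain refer to the supplements by name, and their components may overlap. B27 in its standard form contains antioxidants, fatty acids, transferrin and corticosterone, a natural glucocorticoid. The labels do not say which form was used. Nor do they say whether each library of a medium is a culture of its own, so p-values may rest on technical spread alone.

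Serum brings a cultured cell cholesterol and fatty acids on lipoproteins and albumin, attachment proteins, iron on transferrin, growth factors and Bmp activity. Mammalian cells read their own sterol level in the endoplasmic reticulum: when sterol is low, the protein Scap carries the Srebp transcription factors to the Golgi, where they are cut and released to the nucleus to switch on genes of sterol synthesis, sterol uptake and fatty acid synthesis. Primitive endoderm is the early lineage that gives rise to the visceral and parietal endoderm of the yolk sac, of which the first is an absorptive epithelium and the second secretes a thick basement membrane.

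Reads on genes numbered 1698764 to 2161228 per library in T, 3119049 to 3233526 in LPE and 3127352 to 4418465 in CPE. With fewer reads, the T libraries nevertheless had more genes with at least 1 count (10143 to 10621, while LPE had 8607 to 9314 and CPE 9162 to 9878) and 511 to 791 genes with exactly 1 count, against 26 to 92 in the serum-free libraries. Reads that map to several places, which enter no gene, were 64.9% to 67.6% of all reads in T, 54.2% to 59.9% in LPE and 51.7% to 58.2% in CPE. The first principal component held 32.8% of the variance. On it T lay at -47.46 to -41.48, LPE at -21.48 to -12.39 and CPE at 51.15 to 73.69. On the second, which held 28.4%, T lay at 35.81 to 42.55 and CPE at 9.981 to 18.83. LPE replicate 2 stood there at -87.15, apart from the other 2 LPE libraries (-33.12 and -35.37). T was thus at 1 end of both, with LPE nearer T on the first and CPE nearer T on the second. The regulators Gata4, Gata6, Sox17 and Foxa2, which define the endoderm lineage, were detected in every library, and Gata4 averaged 903 ± 80.3 (SD, n = 3) under T, 836 ± 42.2 under LPE and 927 ± 31.3 under CPE in CPM, the library-size-scaled counts used throughout. Fibroblast markers summed to 5.58 to 39.4 CPM in T, 3.42 to 7.37 in LPE and 2.95 to 9.34 in CPE, with 5 of the 9 listed genes at 0 everywhere. Neural markers summed to 437 to 452 CPM in T, 327 to 359 in LPE and 71.1 to 102 in CPE, most of it from Stmn2 in T and LPE, and endothelial and blood markers to 157 to 162, 179 to 229 and 84.9 to 102 CPM. The part of these differences in the results below was not tested.

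Of 9130 genes tested, 3071 (33.6%) were called between the serum-free media, averaged with equal weight, and T, at an adjusted p under 0.05. The calls were split nearly evenly, with 1502 genes (16.5%) higher and 1569 (17.2%) lower without serum. A gene is said here to have moved alike when it was also called in the same direction in LPE against T and in CPE against T, and its fitted levels in LPE and CPE lay less than 2-fold apart. That held for 1510 genes (16.5%), 839 of them higher (9.19%) and 671 lower (7.35%). The word alike refers to this limit and not to equality, since LPE and CPE differed by the test in 218 of the 1510. The 2 comparisons with T share the T libraries, so the count is a definition and not an independent repeat. Of the other 1561 called genes, 468 had the serum-free media at least 2-fold apart and 1093 were not called in both media alone. Without LPE replicate 2, 3399 genes were called and 1598 moved alike (927 higher, 671 lower). Without T replicate 2, which had the fewest reads, 2146 were called and 608 genes moved alike upwards. The lower genes that moved alike were 415, 426 and 408 without T replicate 1, 2 or 3.

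**Figure D1:**
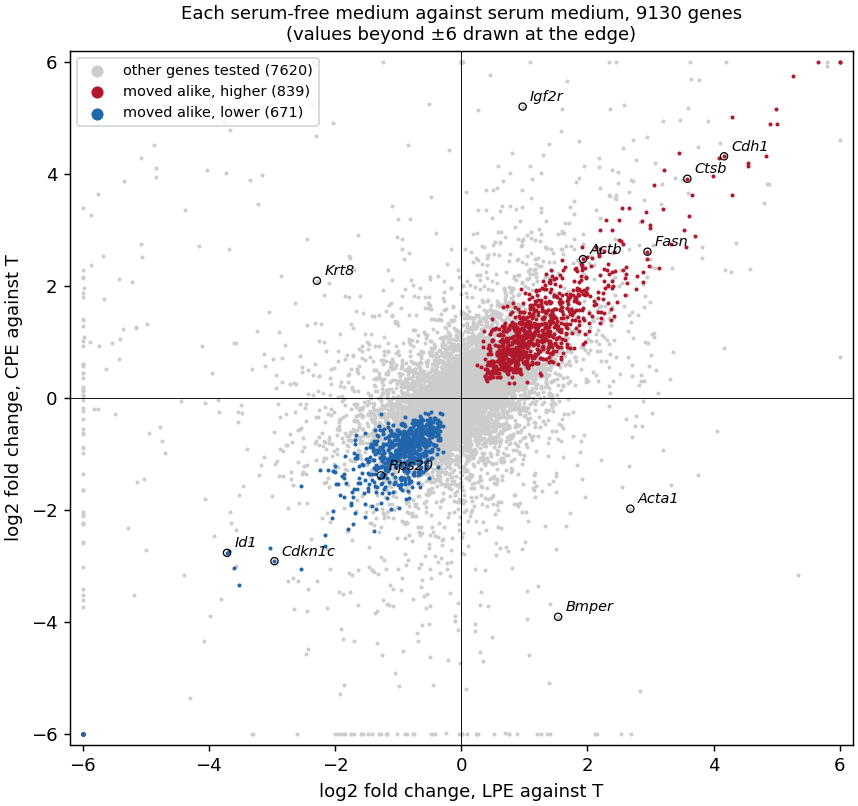
Log2 fold change of each of 9130 genes in LPE against T (horizontal axis) and in CPE against T (vertical axis). Points mark genes, red and blue those that moved alike, grey the rest, and circled genes are named in the text. Cdh1, Ctsb, Fasn and Actb lie at the upper right, Id1, Cdkn1c and Rps20 at the lower left, and Krt8, Acta1 and Bmper off the diagonal. Both axes use the same T libraries, so they are not independent.

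The genes that moved alike held a large part of the transcriptome. The 839 higher genes took 10.57% to 10.95% of gene reads in T, 22.43% to 22.86% in LPE and 21.27% to 22.78% in CPE. The 671 lower genes took 26.82% to 27.12% in T, 15.91% to 16.37% in LPE and 15.35% to 15.97% in CPE. The median log2 fold change was 1.14 among the higher and -0.89 among the lower, against -0.049 over all genes tested. Rises were larger: 513 higher genes passed 2-fold, against 248 lower ones. Genes that fell had a median of 190.0 CPM in T and 102.2 CPM without serum, and genes that rose 58.8 and 129.1 CPM. Over all genes tested the median in T was 39.7 CPM. The read shares and medians given here rest on the contrast that chose the genes, so their direction is not a separate result. All 6 serum-free libraries lay above all 3 T libraries in 1237 genes (13.5% of all tested) and below them in 1445 (15.8%). This was so for 813 of the 839 higher and 660 of the 671 lower genes, but both counts rest on the contrast that chose these genes and nothing is read from them. In bulk RNA, a change in the make-up of the culture and a change of RNA per cell cannot be told apart.

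More genes of sterol and fatty acid supply were called higher than lower. Across 3 lists covering cholesterol synthesis, sterol uptake and sensing, and fatty acid and triglyceride synthesis, 58 genes were tested: 30 were called higher, 4 lower (Nr1h2, Dgat2, Agpat2 and Elovl1) and 24 were not called. Over all genes tested, 16.5% were called higher and 17.2% lower, and 9.19% moved alike upwards and 7.35% downwards. Of the 58, 25 moved alike upwards and 4 downwards. Their promoters are shown first. The RefSeq table of build GRCr8 holds a window from 250 bases before to 50 after the start for 19 of the 25 genes that rose alike. The CCAAT box, the letters CCAAT on either strand (ATTGG on the other), is bound by the factor NF-Y, which works beside Srebp at many sterol genes. It was found in 12 of the 19 windows (63.2%), and 6 windows had 2 or more copies, which was not counted over all promoters. These 6, chosen for their repeated box, are printed 5′ to 3′ on the gene's strand. Each runs from 10 bases before the first motif to 10 after the last, with the motifs in capitals. In order they belong to Hmgcs1, Idi1, Msmo1 and Ebp of cholesterol synthesis and Elovl5 and Scd2 of fatty acid synthesis, and all but Ebp and Elovl5 were picked after their values were seen.

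Hmgcs1 (chr2:53382106-53382185, plus strand): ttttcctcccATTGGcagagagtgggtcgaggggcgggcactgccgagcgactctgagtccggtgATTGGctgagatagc
Idi1 (chr17:66547545-66547600, minus strand): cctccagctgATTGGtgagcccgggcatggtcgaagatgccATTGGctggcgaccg
Msmo1 (chr16:29746930-29747059, plus strand): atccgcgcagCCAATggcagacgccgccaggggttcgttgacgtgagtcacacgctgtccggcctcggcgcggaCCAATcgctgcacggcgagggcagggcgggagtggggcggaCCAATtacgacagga
Ebp (chrX:16971253-16971391, plus strand): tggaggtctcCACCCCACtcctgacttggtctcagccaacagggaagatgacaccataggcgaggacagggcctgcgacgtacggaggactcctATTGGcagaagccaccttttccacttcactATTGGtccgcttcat
Elovl5 (chr8:87670942-87671110, plus strand): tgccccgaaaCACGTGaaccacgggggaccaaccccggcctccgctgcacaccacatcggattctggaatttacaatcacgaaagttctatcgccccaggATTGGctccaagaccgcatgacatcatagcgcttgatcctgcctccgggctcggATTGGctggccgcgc
Scd2 (chr1:253118270-253118337, plus strand): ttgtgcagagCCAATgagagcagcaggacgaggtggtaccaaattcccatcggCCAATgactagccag

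The Ebp stretch also holds CACCCCAC, the core of a sterol regulatory element, and that of Elovl5 holds CACGTG, an E-box. Across the list of cholesterol synthesis, whether called or not, 12 of 15 promoters had a CCAAT box (80.0%), as did 10 of 16 of fatty acid and triglyceride synthesis (62.5%) and 8 of 12 of sterol uptake (66.7%). The background was 37.5% of 33469 promoters in the table and 38.4% of 7052 belonging to genes tested. The same share, 12 of 15, was found in the list of mitosis genes, most of which were not called, and all genes that moved alike were near the background, with 39.4% of the higher and 40.9% of the lower. CACCCCAC was in 2.7% of all promoters and in 1 of 15 of cholesterol synthesis, and CACGTG in 6.42% of all promoters, both counted on either strand. A match is a description of these letters and not a site.

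Npc1, which moves cholesterol out of lysosomes, had 84.6, 55 and 77.7 CPM in T, 327, 287 and 286 in LPE and 271, 264 and 234 in CPE, and was 3.82-fold higher (log2 fold change 1.93 ± 0.15 SE, adjusted p = 1.62e-07). The transcription factor genes rose as well. Srebf1 had 72, 67.2 and 60.4 CPM in T, 204, 177 and 262 in LPE and 225, 246 and 210.3 in CPE, with no overlap, and was 3.32-fold higher (log2 fold change 1.73 ± 0.16 SE, adjusted p = 7.14e-07). Srebf2, its relative that serves sterol genes, was 2.61-fold higher, and Insig1, which holds Scap back in the endoplasmic reticulum and is itself a target, 2.27-fold, both named after their values were seen. In the same list of 16 tested genes, 8 were called higher and Nr1h2, the sterol-sensing nuclear receptor Lxr-beta, was called lower (93.3, 137 and 109 CPM in T, 35.8, 64.3 and 42.6 in LPE and 53.1, 44.1 and 62.8 in CPE). For comparison, 16.5% of all genes tested were called higher and 17.2% lower.

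Fdft1, the squalene synthase, showed the largest rise of its list, with 85.1, 60.2 and 70.2 CPM in T, 289, 191 and 282 in LPE and 223, 226 and 195 in CPE, and was 3.25-fold higher (log2 fold change 1.70 ± 0.17 SE, adjusted p = 2.03e-06). Ebp, a sterol isomerase, had 43.7, 37.1 and 47.4 CPM in T, 74.8, 83.9 and 94.2 in LPE and 109.99, 119 and 123 in CPE and was 2.32-fold higher. Of the 20 cholesterol synthesis genes, all tested, 11 were called higher and none lower, beside 16.5% and 17.2% of all genes tested. In the list 10 moved alike, beside 16.5% of all genes, and the median log2 fold change was 0.72. The 9 that were not called included Fdps, Mvk and Lss (-0.10, 0.08 and 0.35 log2), so the rise did not cover the whole route by this test. The CPM summed over the list averaged 3036 ± 51.6 (SD, n = 3 here and in later sums) under T, 4935 ± 188 under LPE and 4304 ± 185 under CPE.

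Fasn, the fatty acid synthase, had 527, 405 and 484 CPM in T, 3617, 3969 and 3365 in LPE and 2402, 3426 and 2841 in CPE. The lowest serum-free library was more than 4 times the highest T library, and Fasn was 6.88-fold higher (log2 fold change 2.78 ± 0.12 SE, adjusted p = 8.12e-10). Acly, which makes the acetyl-CoA that fatty acid and sterol synthesis draw on, had 597, 575 and 498 CPM in T, 1393, 1318 and 1415 in LPE and 1459, 1542 and 1546 in CPE and was 2.59-fold higher. Aacs, which makes acetoacetyl-CoA from ketone bodies, had 42, 45.2 and 39.99 CPM in T, 158, 179.96 and 104 in LPE and 159.5, 270.3 and 194 in CPE and was 4.13-fold higher. The desaturases moved the same way: Scd1 (3.46-fold), Scd2 (2.6-fold), Fads1 (2.98-fold) and Fads2 (2.51-fold) were all called higher, the 4 of them named after their values were seen. Elovl5, an elongase of polyunsaturated fatty acids, had 10.4, 5.21 and 8.83 CPM in T, 17.9, 21.8 and 26.9 in LPE and 36.9, 28.8 and 45.7 in CPE.

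A further 3 members fell alike. Dgat2, which adds the last fatty acid to make triglyceride, had 206, 225 and 179 CPM in T, 55.9, 48.8 and 46.8 in LPE and 95.5, 72.7 and 76 in CPE, and was 3.17-fold lower (log2 fold change -1.66 ± 0.15 SE, adjusted p = 5.61e-07). Agpat2, an earlier acyltransferase, was 1.86-fold lower and Elovl1, an elongase of very long saturated chains, 1.62-fold lower. Of 22 tested, 11 were called higher and 3 lower, beside 16.5% and 17.2% of all genes tested. The list had a median of 0.962 on the log2 scale. Its summed CPM were 3073 ± 164 in T, 8732 ± 489 in LPE and 7994 ± 948 in CPE. Fatty acid oxidation and lipid droplet genes gave no common direction. Of 14, 3 were called higher and 1 lower, beside 16.5% and 17.2% of all genes tested, and the median of the list was -0.063. There Acadl, a dehydrogenase of long chains, was 3.35-fold higher, and Fabp3, a carrier of fatty acids in the cytosol, 2.18-fold lower, from 1144, 1011 and 1022 CPM in T, 484, 448 and 559.9 in LPE and 457, 477 and 492 in CPE.

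**Figure D2:**
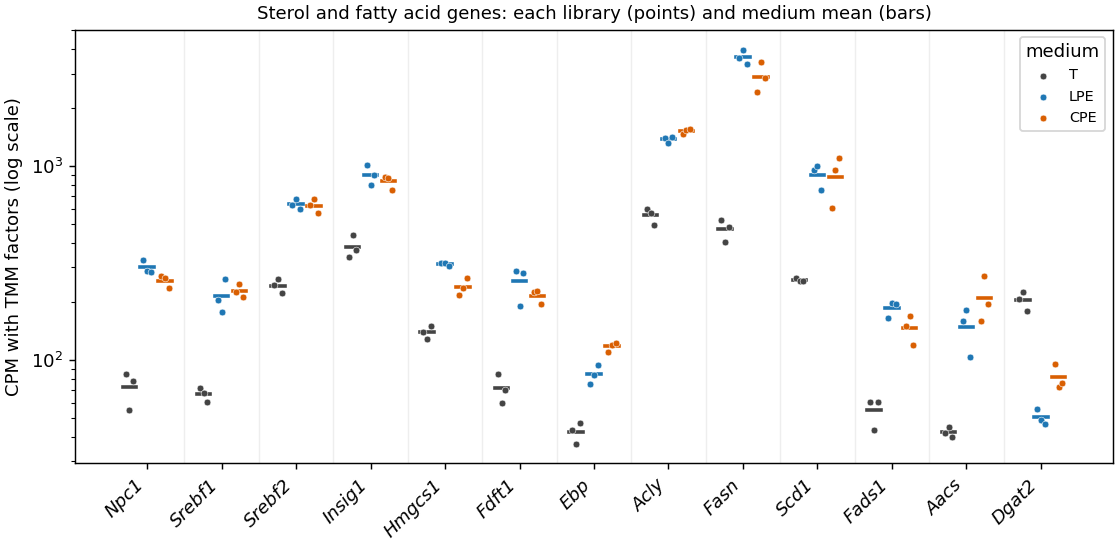
CPM with TMM factors (log scale) of 13 sterol and fatty acid genes in each library (points) with the mean per medium (bars), T in grey, LPE in blue and CPE in orange. In 12 genes all serum-free points lie above all T points, and in Dgat2 they lie below.

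The epithelial junction and basement membrane genes included some of the largest rises. Cdh1, the E-cadherin that holds epithelial cells together, had 25.1, 6.95 and 19.5 CPM in T, 348, 337 and 252 in LPE and 492, 326 and 225 in CPE. The serum-free libraries overlapped each other across media and lay far above T, and Cdh1 was 18.9-fold higher (log2 fold change 4.24 ± 0.32 SE, adjusted p = 1.55e-07). Jup, plakoglobin, which links cadherins to the cytoskeleton, had 62.8, 41.1 and 57.2 CPM in T, 326, 343 and 289.7 in LPE and 308, 279.6 and 198 in CPE and was 5.38-fold higher. Of 22 tested junction and keratin genes, 14 were called higher and none lower, beside 16.5% and 17.2% of all genes tested. In this list 8 moved alike, beside 16.5% of all genes, and the median was 1.09. Tjp1, Tjp3, Ocln and F11r of the tight junction and Pard3 and Esrp2 were the other 6 that moved alike, with log2 fold changes of 0.73, 2.35, 1.10, 0.74, 1.22 and 1.02, and were named after their values were seen. Members of this list could also differ between media: the tight junction gene Cldn4 was called higher, but with 2.18, 0 and 0.465 CPM in T, 5.75, 0 and 0 in LPE and 122, 73.4 and 110.5 in CPE the rise lay in CPE, and it was no longer called without LPE replicate 1 (log2 fold change 1.206). Without CPE replicate 1, 1 member of the list was called lower. The keratins Krt8 and Krt18 were not called, since their levels in LPE and CPE lay on opposite sides of T.

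Basement membrane genes were called higher in 8 of 11 tested, with none lower and a median of 1.16, and 3 moved alike. Col4a1, a chain of type IV collagen, had 3371, 2884 and 3357 CPM in T, 8935, 10383 and 9436 in LPE and 5454, 5496 and 5098 in CPE. All serum-free libraries were above T, with LPE above CPE, and Col4a1 was 2.23-fold higher (log2 fold change 1.16 ± 0.07 SE, adjusted p = 1.92e-08). Lamc1, the laminin gamma-1 chain, had 1110.4, 659.6 and 1049.9 CPM in T, 3157, 3872 and 3231 in LPE and 2185, 2692 and 2046 in CPE and was 2.99-fold higher. Without LPE replicate 2 or CPE replicate 2, 1 member of the list was called lower in place of none. Among 17 tested integrins and adhesion genes, 5 were called higher (3 without T replicate 1 or T replicate 3) and 3 lower. Of all genes tested, 16.5% were called higher and 17.2% lower. Itga6, a subunit of laminin receptors, had 96, 106 and 117 CPM in T, 306, 297 and 321 in LPE and 165, 180.1 and 139 in CPE (2.09-fold higher). Itgb6, whose product pairs with the alpha-v chain, had 9.28, 9.84 and 6.97 CPM in T, 56.6, 52.5 and 29.8 in LPE and 29.5, 19.3 and 23.5 in CPE (3.84-fold higher), and Itgb5, another partner of alpha-v, had 171, 201 and 152 CPM in T, 77.4, 82.4 and 86.5 in LPE and 139, 114 and 80.9 in CPE (1.82-fold lower).

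Serum response and actin genes did not fall as a group: 9 of 27 tested were called higher and 3 lower, with a median of 0.412. Of all genes tested, 16.5% were called higher and 17.2% lower. Actb, the cytoplasmic beta-actin, had 1397, 1312 and 1319.6 CPM in T, 5742, 4859 and 4734 in LPE and 8323, 7554 and 6609.8 in CPE. Each serum-free library held more than 3 times the level of any T library, and Actb was 4.61-fold higher (log2 fold change 2.20 ± 0.09 SE, adjusted p = 3.32e-10), with CPE above LPE (adjusted p = 0.000577). Zyx, a focal adhesion protein, had 39.3, 28.4 and 27.9 CPM in T, 81.8, 138 and 96.5 in LPE and 119, 77 and 73.8 in CPE (3.05-fold higher), and Crim1, a transmembrane binder of Bmp ligands, had 33.8, 31.9 and 18.1 CPM in T, 120.2, 92 and 78.5 in LPE and 97.6, 53.6 and 69.3 in CPE (3.03-fold higher). Tagln2, an actin-binding protein of the calponin family, had 949.99, 943 and 923 CPM in T, 539, 544 and 482 in LPE and 466, 495 and 512 in CPE and was 1.85-fold lower (log2 fold change -0.89 ± 0.08 SE, adjusted p = 6.09e-07). The immediate early gene Fos was not called (1.22, adjusted p = 0.459), nor was Srf, which encodes the serum response factor (-0.45, adjusted p = 0.354). Egr1 to Egr3, Fosb and Fosl1 were too low to test. Actb has many processed copies in the genome, and since reads that map to several places enter no gene, its level is uncertain.

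Dexamethasone was in T alone. The list of glucocorticoid receptor targets also held the receptor gene, Nr3c1. Of its 15 members tested, 2 were called higher, 1 lower and 12 not at all, and 10 others were too low to test. Over all genes tested 33.6% were called. The 2 higher became 0 without T replicate 2 and 1 without T replicate 3 or CPE replicate 2. Fkbp5, a chaperone partner of the receptor and a commonly used target, had 57.8, 75.9 and 80.4 CPM in T, 83.1, 80.5 and 71.2 in LPE and 35.1, 33.6 and 38 in CPE and was not called (log2 fold change -0.44, adjusted p = 0.0822). Tsc22d3, which encodes the target Gilz, lay at 3.27, 5.79 and 2.32 CPM in T, 7.03, 0 and 2.56 in LPE and 11.2, 6.81 and 9.02 in CPE, close to the counting floor. Per1, a clock gene and target, was the 1 member that moved alike, and it was higher without dexamethasone, with 14.7, 11.6 and 10.2 CPM in T, 31, 32.9 and 21.8 in LPE and 17.1, 35.2 and 26.7 in CPE (2.25-fold, adjusted p = 0.0189). This call was lost without T replicate 2, T replicate 3 or CPE replicate 2. Glul, glutamine synthetase, was called lower, but its 1631, 1639 and 1606 CPM in T, 2576, 2635 and 2323 in LPE and 456, 491 and 395 in CPE show a level above T in LPE and below it in CPE. Nr3c1, the receptor itself, was not called (log2 fold change 0.26, adjusted p = 0.477).

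**Figure D3:**
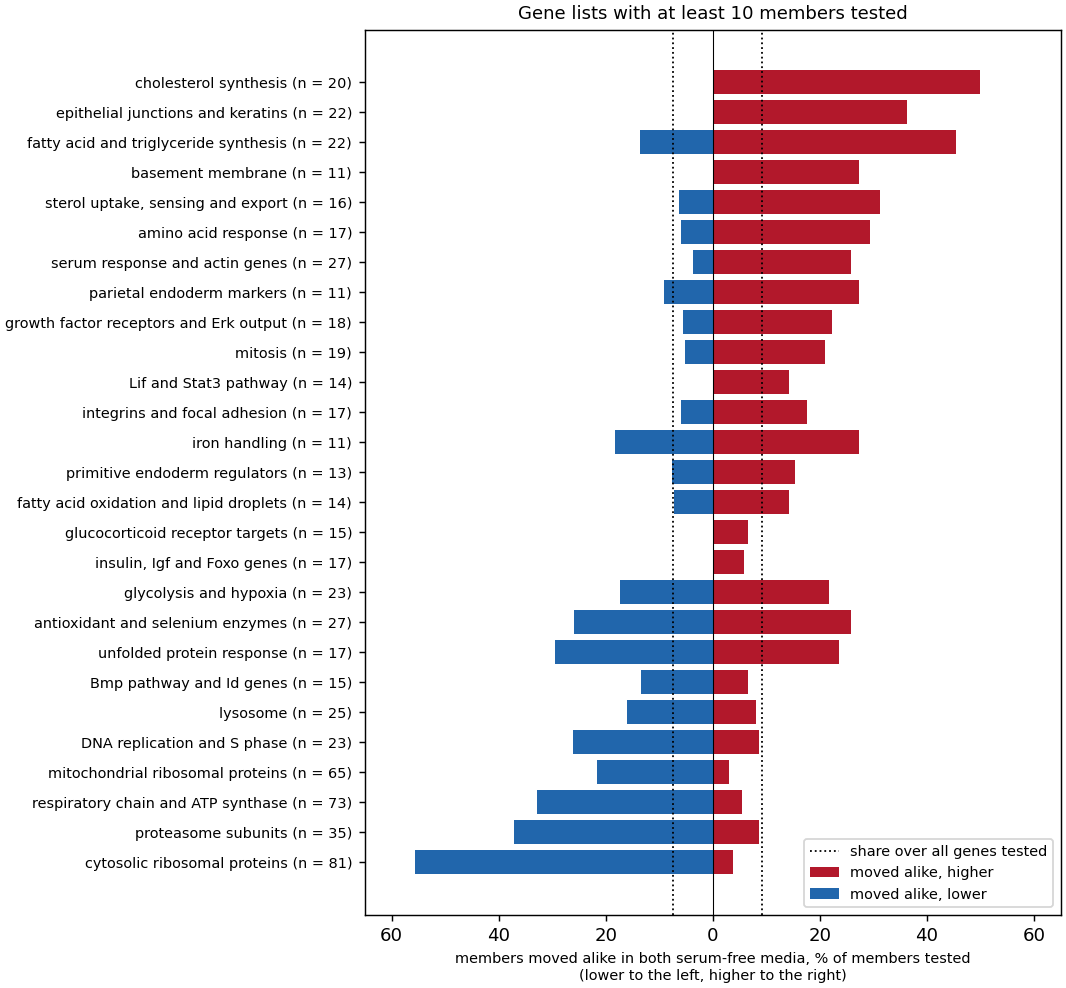
Percent of tested members that moved alike in both serum-free media, per gene list with at least 10 members tested, higher to the right (red) and lower to the left (blue), with n members tested in brackets. Dotted lines mark the shares over all genes tested, 9.19% higher and 7.35% lower. Cholesterol synthesis reaches furthest to the right and cytosolic ribosomal proteins furthest to the left.

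Many genes of protein synthesis and energy supply fell. Of 81 cytosolic ribosomal protein genes tested, 57 were called lower and 5 higher, beside 17.2% and 16.5% of all genes tested. In this family 45 moved alike downwards and 3 upwards, beside 7.35% and 9.19% of all genes. The median log2 fold change was -0.575, against -0.049 over all genes tested. Their summed level was 88036, 74049 and 87821 CPM in T, 59491, 56480.0 and 56758 in LPE and 57211, 59072 and 58422 in CPE. T replicate 2 was the lowest of the T libraries and still above all others. Without it, 57 members were called lower and 3 higher. Rps20, of the small subunit, had 2107, 1642 and 2212 CPM in T, 846, 784 and 840.4 in LPE and 763, 802 and 718 in CPE and was 2.51-fold lower (log2 fold change -1.33 ± 0.09 SE, adjusted p = 4.51e-08). Rpsa, which is also known as the laminin receptor, was 2.02-fold lower, and Rplp1, of the stalk of the large subunit, 2.25-fold lower. A few members went up, among them Rpl8, of the large subunit, with 50.2, 43.4 and 52.1 CPM in T, 75.4, 105 and 97.8 in LPE and 115, 114 and 114 in CPE (2.12-fold higher). Ribosomal protein genes have many near-identical copies, and the share of reads mapping to several places was higher in T than in each serum-free library, so these levels are uncertain. The part of that difference in the fall was not tested.

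Other translation factors split. Eif5a, an elongation and termination factor that carries hypusine, had 2955, 3140.5 and 2798 CPM in T, 1494, 1415 and 1519 in LPE and 1398, 1384 and 1539 in CPE and was 2.03-fold lower (log2 fold change -1.02 ± 0.07 SE, adjusted p = 3.81e-08). Eef2, which moves the ribosome along the message, went the other way, with 2493, 2359 and 2398 CPM in T, 6940.4, 6765 and 6277 in LPE and 7138, 7506 and 7271 in CPE, and was 2.89-fold higher (log2 fold change 1.53 ± 0.06 SE, adjusted p = 3.32e-10). Pabpc1, the poly(A)-binding protein, had 567, 499.8 and 479 CPM in T, 1231, 1097 and 1179 in LPE and 1836, 1490.1 and 1835 in CPE and was 2.75-fold higher, and Hnrnpa1, an RNA-binding splicing regulator, was 2.68-fold higher. These genes were drawn from those in which the 6 serum-free libraries lay on 1 side of the T libraries, so nothing is read from that.

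Mitochondrial and proteasome genes showed the same lean. Mitochondrial ribosomal proteins were called lower in 26 of 65 and higher in 3, with a median of -0.468. For this list and those that follow, the shares over all genes tested were 17.2% called lower and 16.5% higher. Without T replicate 1 or T replicate 2, 13 and 17 of the 65 were called lower and 1 higher in each case. Over all genes those fits called 1084 and 1063 lower and 1118 and 1083 higher. Respiratory chain and ATP synthase genes were called lower in 36 of 73 and higher in 6, with a median of -0.516. Their summed level was 12421, 11580.0 and 12338 CPM in T, 9022, 8392 and 8800.1 in LPE and 9395, 9894 and 9563 in CPE, with no overlap. Ndufa11, a complex I subunit, had 177, 143 and 165 CPM in T, 76.7, 73.4 and 64.1 in LPE and 63.7, 67.2 and 48.6 in CPE (2.47-fold lower), whereas Cox5a, a complex IV subunit, had 91.1, 93.2 and 76.7 CPM in T, 164, 145 and 128 in LPE and 152, 136 and 131 in CPE (1.64-fold higher). Proteasome subunits were called lower in 19 of 35 and higher in 4, with a median of -0.452 and summed CPM of 9249 ± 139 in T, 7727 ± 313 in LPE and 7708 ± 196 in CPE. The exceptions included Psmd2 and Psmd3 of the regulatory particle (1.7-fold and 1.7-fold higher). All of these sums are relative to the reads on all genes in a library.

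**Figure D4:**
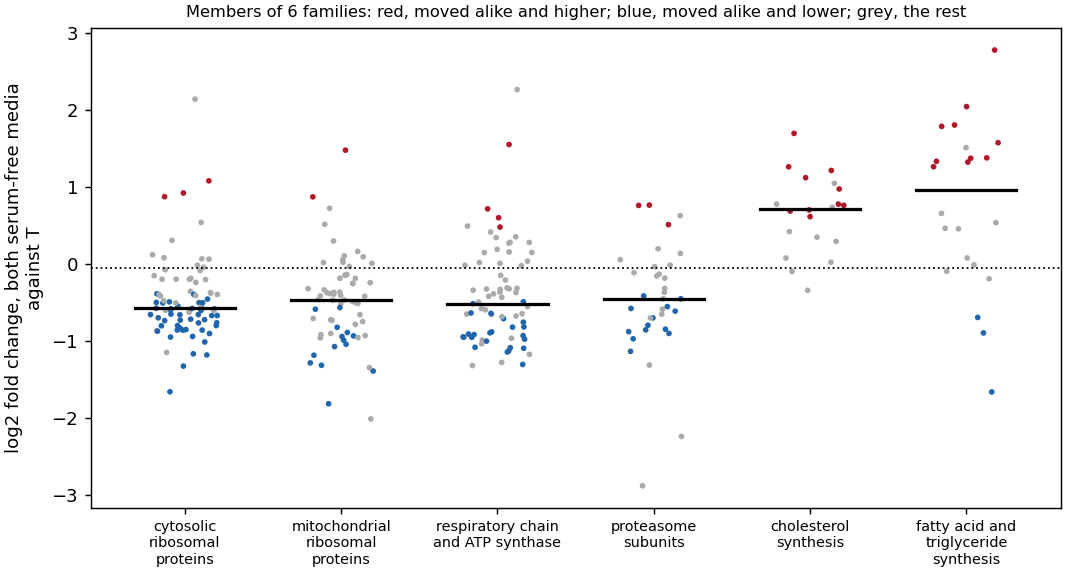
Log2 fold change of both serum-free media against T for each tested member of 6 gene families (points; red moved alike and higher, blue moved alike and lower, grey the rest), with the family median (bar) and the median over all genes tested, -0.049 (dotted line). The 4 families of protein synthesis, respiration and protein breakdown have medians of -0.452 to -0.575, and the cholesterol and fatty acid families 0.72 and 0.962.

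Antioxidant genes moved in both directions. Of 27 tested, 10 were called higher and 7 lower, 7 moved alike in each direction, and the median was -0.064. The shares over all genes tested were 16.5% called higher and 17.2% lower. Srxn1, Gclc, Gclm, Gsr, Tkt, Txnrd1 and Cat rose alike. Cat, catalase, had 40.4, 56.2 and 47.9 CPM in T, 166, 142 and 154 in LPE and 168, 119.7 and 105 in CPE and was 2.95-fold higher (log2 fold change 1.56 ± 0.19 SE, adjusted p = 1.47e-05). Txnrd1, the cytosolic thioredoxin reductase, had 43.7, 23.2 and 32.1 CPM in T, 111, 91.7 and 100.3 in LPE and 132, 72 and 76.7 in CPE (2.94-fold higher). Gsr, glutathione reductase, had 194, 218 and 227 CPM in T, 406, 441 and 435 in LPE and 514, 549 and 487 in CPE (2.21-fold higher), and Gclc and Gclm, the subunits of the enzyme that starts glutathione synthesis, were 1.87-fold and 1.95-fold higher. Nqo1, a quinone reductase, was called higher, but LPE and CPE lay more than 2-fold apart (88.9, 74.1 and 75.8 CPM in T, 428, 513 and 551 in LPE and 212, 191 and 144 in CPE). Gpx1, Gpx3, Gpx4, Prdx1, Prdx2, Txn1 and Sod1 fell alike. Gpx4, the selenium enzyme that repairs lipid peroxides, had 205, 198 and 179.9 CPM in T, 79.6, 72.7 and 118 in LPE and 40.1, 55 and 52.2 in CPE and was 2.92-fold lower (log2 fold change -1.55 ± 0.17 SE, adjusted p = 5.07e-06). Prdx1, a peroxiredoxin, had 1512, 1437 and 1619 CPM in T, 697, 600.5 and 815 in LPE and 722, 778 and 778 in CPE and was 2.08-fold lower (log2 fold change -1.06 ± 0.09 SE, adjusted p = 4.46e-07). Gpx3, a secreted peroxidase, was 2.46-fold lower, Txn1, thioredoxin, 2.05-fold lower and Sod1 1.5-fold lower. Srxn1, Gsr, Gclc, Gclm, Tkt, Gpx1, Prdx2, Txn1 and Sod1 were named after their values were seen.

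The ferritin chains Fth1 and Ftl1, which store iron, rose, and the transferrin receptor fell. Fth1 had 258, 312 and 276 CPM in T, 674, 639.97 and 796 in LPE and 806, 775 and 874 in CPE and was 2.69-fold higher (log2 fold change 1.43 ± 0.10 SE, adjusted p = 1.02e-07), and Ftl1 had 330.1, 372 and 327 CPM in T, 882, 867 and 687 in LPE and 920.4, 782 and 522 in CPE and was 2.26-fold higher. Tfrc, the transferrin receptor, had 378, 387 and 412 CPM in T, 251, 205 and 239 in LPE and 224, 169.9 and 232 in CPE and was 1.78-fold lower (log2 fold change -0.83 ± 0.12 SE, adjusted p = 5.18e-05). Ncoa4, which brings ferritin to the lysosome for breakdown, was 1.48-fold lower, and Slc39a14, an iron and zinc importer, 1.69-fold higher. Over all genes tested 33.6% were called. Of the 11 iron genes tested, the 5 above were called and 5 others were not. The last, Hamp, which encodes hepcidin, had 8.73, 6.95 and 8.37 CPM in T, 8.95, 0 and 0 in LPE and 0 in all 3 in CPE, and its call was lost without any 1 T or CPE library. The ferritin genes have processed copies, and their levels are uncertain for the reason given above.

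Lysosomal genes did not share a direction, with 6 of 25 called higher and 5 lower (8 lower without LPE replicate 2 or LPE replicate 3), beside 16.5% and 17.2% of all genes tested. Ctsb, the protease cathepsin B, was the large exception. It had 36, 33.6 and 41.4 CPM in T, 539.6, 401 and 395 in LPE and 685, 539 and 461 in CPE, with every serum-free library more than 9 times any T library, and was 13.5-fold higher (log2 fold change 3.75 ± 0.18 SE, adjusted p = 1.65e-09). Psap, the precursor of saposins, had 341, 347 and 345 CPM in T, 548, 548 and 629 in LPE and 809, 859 and 755 in CPE (1.98-fold higher). Ctsz, cathepsin Z, had 1814, 1929 and 1829 CPM in T, 1244, 1129 and 1162 in LPE and 865, 707 and 708 in CPE (1.96-fold lower), and Atp6v1a, a subunit of the proton pump, had 564, 645 and 564 CPM in T, 213, 242 and 230.1 in LPE and 349, 375 and 469 in CPE (1.96-fold lower).

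Id1, Id3 and Id4 were called lower and Id2 was not called. They encode dominant-negative helix-loop-helix proteins and are classic targets of Bmp signalling. Id1 had 125, 174 and 137 CPM in T, 13.1, 15.2 and 4.81 in LPE and 17.7, 5.45 and 41.9 in CPE. The highest serum-free library was below the lowest T library, and Id1 was 9.45-fold lower (log2 fold change -3.24 ± 0.41 SE, adjusted p = 2.19e-05). Id4 had 74.8, 70.1 and 92.1 CPM in T, 18.2, 53.1 and 33 in LPE and 23.9, 13.2 and 32.2 in CPE (2.8-fold lower). Id3 had 107, 134 and 98.1 CPM in T, 7.99, 0 and 0.641 in LPE and 32.7, 13.6 and 21.6 in CPE and was also below T in every serum-free library, but CPE lay 7.77-fold above LPE, past the 2-fold limit, so it is not among the genes that moved alike. Id2 had a log2 fold change of 0.51, adjusted p = 0.447. Not called either were the inhibitors Bambi and Smad7 (-0.85 and -0.62). Bmpr2, the type II Bmp receptor, rose, with 67.1, 66.6 and 63.2 CPM in T, 143, 205 and 162 in LPE and 129, 179.9 and 142 in CPE (2.44-fold higher). In all, 3 of 15 tested Bmp genes, all of them Id genes, were called lower and 1 higher (2 higher without LPE replicate 1 or LPE replicate 2). Over all genes tested 17.2% were called lower and 16.5% higher.

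Cell cycle genes were mixed. Cdkn1c, the Cdk inhibitor p57, had 246, 291 and 237 CPM in T, 38.4, 42.3 and 18.6 in LPE and 31.8, 40.9 and 29 in CPE and was 7.67-fold lower (log2 fold change -2.94 ± 0.20 SE, adjusted p = 6.15e-08). Ccne1, cyclin E1, had 153, 162 and 145 CPM in T, 72.2, 60.3 and 48.7 in LPE and 49.8, 49.5 and 53.1 in CPE (2.76-fold lower). Top2a, the topoisomerase that untangles chromosomes, had 215, 170.3 and 228 CPM in T, 759, 786 and 697 in LPE and 601, 704 and 681 in CPE and was 3.44-fold higher (log2 fold change 1.78 ± 0.11 SE, adjusted p = 2.42e-08). Mcm6 of the replicative helicase was 1.91-fold higher and Cdt1, which loads it, 2.17-fold. Bub1, of the spindle checkpoint, was 1.64-fold lower. Of the 23 replication and S phase genes tested, 9 were called lower and 4 higher, and of 19 mitosis genes 5 were called higher and 3 lower. Over all genes tested 16.5% were called higher and 17.2% lower. Without LPE replicate 1 or CPE replicate 3, 5 mitosis genes were called lower, and without T replicate 2, 3 were called higher. Hist1h1a, a linker histone whose message lacks a poly(A) tail, had 230.3, 122 and 205 CPM in T, 9.59, 25.5 and 8.33 in LPE and 20.3, 32.5 and 30.3 in CPE (9.25-fold lower), and H2afx, the histone marked at DNA breaks, had 1774, 1697 and 1679 CPM in T, 1111, 941 and 979 in LPE and 761, 625 and 626 in CPE (2.08-fold lower).

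Of the 17 amino acid response genes tested, 8 were called higher, 2 lower (1 without T replicate 1 or T replicate 2) and 7 were not called. Among all genes tested, 16.5% were called higher and 17.2% lower. Slc1a5, a glutamine carrier, had 42.6, 27.2 and 30.2 CPM in T, 156, 168 and 159 in LPE and 95.5, 128 and 165 in CPE and was 4.33-fold higher (log2 fold change 2.11 ± 0.21 SE, adjusted p = 2.32e-06). Slc38a2, a carrier that responds to amino acid shortage, had 176, 162 and 182 CPM in T, 484, 500.4 and 455 in LPE and 904, 733 and 623 in CPE and was 3.47-fold higher. Chac1, which breaks down glutathione and is a target of Atf4, was 3.14-fold higher. Phgdh, the first enzyme of serine synthesis, had 316, 347 and 329.7 CPM in T, 155, 118 and 157 in LPE and 118, 129 and 161 in CPE and was 2.37-fold lower (log2 fold change -1.24 ± 0.13 SE, adjusted p = 3.01e-06). Atf4 itself was not called (0.15, adjusted p = 0.29). Unfolded protein response genes were called higher in 5 and lower in 5 of 17: Herpud1, of the degradation complex of the endoplasmic reticulum, had 18, 12.2 and 22.3 CPM in T, 91.4, 105 and 67.9 in LPE and 129, 76.3 and 74.4 in CPE (5.13-fold higher), and the chaperones Calr and Pdia3 were 1.87-fold and 1.97-fold higher, whereas Xbp1, a regulator of this response, had 175, 179 and 179 CPM in T, 90.5, 86.4 and 66 in LPE and 116, 126 and 115 in CPE (1.81-fold lower) and Manf and Creld2 were 1.98-fold and 2.12-fold lower.

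Glycolysis genes were called higher in 6 and lower in 6 of 23 tested, beside 16.5% and 17.2% of all genes tested. Hk1, the hexokinase that traps glucose, had 8.18, 7.53 and 8.83 CPM in T, 63.6, 48.2 and 82.7 in LPE and 34.2, 52.9 and 39.6 in CPE and was 6.36-fold higher (log2 fold change 2.67 ± 0.31 SE, adjusted p = 9.25e-06). Aldoa, aldolase A, had 156, 125 and 145 CPM in T, 571, 607 and 467 in LPE and 632, 543 and 443 in CPE (3.83-fold higher). Pkm, pyruvate kinase, had 1576, 1744 and 1619 CPM in T, 741, 679 and 612 in LPE and 963, 1261 and 1099 in CPE (1.9-fold lower), and Ldha, lactate dehydrogenase A, had 2419, 2561 and 2582 CPM in T, 1624, 1679.97 and 1662 in LPE and 898, 959 and 1167 in CPE (1.95-fold lower). Vegfa, which encodes an angiogenic factor under hypoxic control, was 2.4-fold higher.

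Among growth factor receptors, 2 of the 4 that rose alike belong to the Egf receptor family; all 3 media contained Egf and Pdgf. Erbb3, a partner of the Egf receptor family, had 8.73, 4.63 and 0.93 CPM in T, 20.1, 21.4 and 40.7 in LPE and 60.7, 53.1 and 33.5 in CPE and was 7.81-fold higher (log2 fold change 2.97 ± 0.52 SE, adjusted p = 0.000394). Erbb2, another of that family, had 12, 11.6 and 10.2 CPM in T, 31.6, 19 and 34.9 in LPE and 39.5, 44.5 and 46.7 in CPE (3.12-fold higher), and Fgfr4 was 2.63-fold higher. Pdgfra, the Pdgf receptor that marks primitive endoderm, had 472, 437 and 483 CPM in T, 287, 266 and 316 in LPE and 226, 272 and 278 in CPE and was 1.69-fold lower (log2 fold change -0.76 ± 0.10 SE, adjusted p = 3.35e-05). Of the 18 tested receptors and Erk output genes 5 were called higher and 3 lower, beside 16.5% and 17.2% of all genes tested. Klf5, a transcription factor downstream of Lif in stem cells, had 227, 186 and 224 CPM in T, 789.8, 725 and 741 in LPE and 474, 633 and 415 in CPE (2.91-fold higher), with LPE above CPE (adjusted p = 0.00926). T, which also contains Lif, was lowest. CPE has Chir99021 in place of Lif, so the part of Lif cannot be told apart and was not tested.

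Endoderm regulators moved in both directions. Gata6 had 284, 272 and 298 CPM in T, 443, 494 and 626 in LPE and 464, 450.2 and 340.2 in CPE and was 1.64-fold higher (log2 fold change 0.71 ± 0.13 SE, adjusted p = 0.00054), and Foxa2 had 57.3, 53.9 and 51.6 CPM in T, 104, 114 and 119.6 in LPE and 106, 95.8 and 67.3 in CPE (1.85-fold higher). Sox17 had 1031, 1367 and 1172 CPM in T, 1035, 890.2 and 1026 in LPE and 619, 772 and 587 in CPE (1.48-fold lower), and Dab2, an endocytic adaptor, had 520.01, 574 and 481 CPM in T, 449, 624 and 484 in LPE and 213, 175 and 243 in CPE (1.59-fold lower). Foxq1 and Pou5f1 were 1.54-fold and 1.36-fold lower, and Pdgfra, above, completes the 5 that were called lower. In Sox17, Dab2, Foxq1 and Pou5f1, named after their values were seen, the serum-free and T libraries overlapped. None of these 4 was called in LPE against T (adjusted p = 0.111 for Sox17 and 0.843 to 0.953 for the others), and all 4 were called lower in CPE against T. Of 13 tested regulators, 3 were called higher and 5 lower (3 without T replicate 2), and Gata4 was not called (log2 fold change -0.04, adjusted p = 0.767). Lrp2, megalin, the uptake receptor of visceral endoderm, had 111, 71.8 and 87 CPM in T, 196, 179 and 196 in LPE and 203, 215 and 360.4 in CPE (2.46-fold higher). Amn, amnionless, a partner of the uptake receptor cubilin, had 117, 134 and 135 CPM in T, 47.9, 52.5 and 81.4 in LPE and 11.5, 7.27 and 10.6 in CPE (5.3-fold lower). Srgn, a proteoglycan of parietal endoderm, had 188, 170.3 and 224 CPM in T, 994, 955 and 1063 in LPE and 595, 603 and 327 in CPE (3.67-fold higher), while Pth1r, the receptor for parathyroid hormone-related peptide and also a parietal marker, had 684, 725 and 686 CPM in T, 428, 352 and 408 in LPE and 489.8, 566 and 388 in CPE (1.6-fold lower). Thbd was not called (log2 fold change -0.09, adjusted p = 0.53). Of 6 visceral markers tested 1 was called higher (2 without LPE replicate 2 or CPE replicate 1) and 1 lower, and of 11 parietal markers 4 were called higher and 2 lower (4 without LPE replicate 2). The shares over all genes tested were 16.5% called higher and 17.2% lower.

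**Figure D5:**
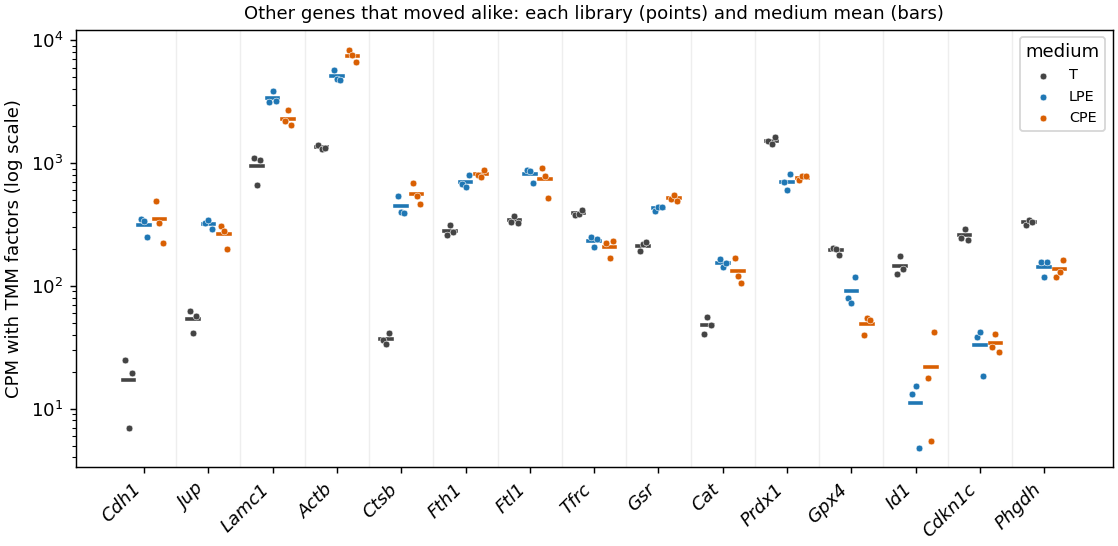
CPM with TMM factors (log scale) of 15 further genes that moved alike, in each library (points) with the mean per medium (bars), T in grey, LPE in blue and CPE in orange. Cdh1, Jup, Lamc1, Actb, Ctsb, Fth1, Ftl1, Gsr and Cat lie above T in all 6 serum-free libraries, and Tfrc, Prdx1, Gpx4, Id1, Cdkn1c and Phgdh lie below.

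The largest rises were in genes at or near 0 in T. Ubash3a and Zrsr1 had 0 counts in all 3 T libraries, and against 3 counts per library they were at least 5.31-fold and 4.76-fold higher without serum, from 0 in all 3 CPM in T, 5.43, 16.2 and 7.05 in LPE and 10.3, 5.91 and 5.8 in CPE for Ubash3a. Tspan1, a tetraspanin, had 0, 0 and 0.465 CPM in T, 7.67, 16.2 and 8.65 in LPE and 14.4, 18.6 and 11.9 in CPE, and Osgin1, an oxidative stress response gene, 0.546, 0.579 and 0.465 CPM in T, 26.8, 18.3 and 8.65 in LPE and 27.1, 17.9 and 16.4 in CPE. Pcsk6, a protease that activates Tgf-beta family ligands, had 1.64, 0.579 and 2.79 CPM in T, 25.6, 37.9 and 26.6 in LPE and 41.3, 35.7 and 26.4 in CPE and was 18.2-fold higher (log2 fold change 4.19 ± 0.49 SE, adjusted p = 9.25e-06). Cacnb2, Hoxd9, Myo7b, Ugt1a6 and Akr1cl also belong to the 12 largest rises, each with 1.64 CPM or less in every T library. The call of Hoxd9 was lost without T replicate 1 or T replicate 3, and that of Akr1cl without T replicate 3. Rn5s, a 5S ribosomal RNA gene, had 13.6, 0.579 and 3.72 CPM in T, 168, 171 and 238 in LPE and 167, 182 and 190.4 in CPE; the libraries were depleted of ribosomal RNA, and its copies are many.

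At the other end, 12 genes that moved alike had 0 counts in all 6 serum-free libraries. The mitochondrial carrier gene Slc25a33 had 6, 6.95 and 5.11 CPM in T, 0 in all 3 in LPE and 0 in all 3 in CPE, and against 3 counts per library it was at least 6.71-fold lower. By the same bound Pmepa1, a target and inhibitor of Tgf-beta signalling, was at least 6.12-fold lower, Col9a2, a cartilage collagen chain, 5.99-fold, Cthrc1, a secreted collagen-repeat protein, 5.96-fold, Sox8, a transcription factor, 5.66-fold and Plcb4, a phospholipase, 5.61-fold. All 6 were low in T too, between 3.25 and 6.95 CPM, where 1 count is worth up to 0.579 CPM. These bounds cover counting error only. In the serum-free libraries a 0 could stand beside a well-counted replicate (Rps6ka2 had 36, 0 and 0 counts in LPE), so the spread can exceed what the bounds allow for. Gpc1, a glypican, stood at a higher level, with 48.6, 52.7 and 39.5 CPM in T, 6.71, 0 and 5.45 in LPE and 8.55, 5 and 0 in CPE (10.8-fold, adjusted p = 0.00181), as did Rps6ka2, a kinase downstream of Erk, with 50.7, 49.8 and 40.5 CPM in T, 11.5, 0 and 0 in LPE and 6.19, 2.04 and 9.02 in CPE (10.01-fold, adjusted p = 0.0037). Spr, sepiapterin reductase, had 25.1, 44.6 and 37.7 CPM in T, 5.75, 0 and 7.37 in LPE and 6.19, 5.22 and 5.15 in CPE (7.23-fold, adjusted p = 0.00208).

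Genes called in opposite directions in LPE and CPE against T numbered 84, of which 49 were lower in LPE and higher in CPE and 35 the reverse. In the average of the serum-free media 19 of them were called, and such a call does not describe either medium. Vim, the mesenchymal filament vimentin, was called lower (-0.57, adjusted p = 0.00398), with 272, 205 and 248 CPM in T, 515, 541 and 447 in LPE and 65.2, 50.6 and 42.2 in CPE.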

How the data were processed

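The 9 libraries, 3 per medium, were grouped by their titles. Random-primed, strand-keeping libraries were made after removal of ribosomal RNA, per the labels. The submitters' processing notes list STAR 2.5.1, Trimmomatic 0.33, CASAVA 1.8.2, DESeq2 and build rn6. Which annotation was used is not given in the sources. The deposited tables hold raw counts of reads per gene by the authors, and column 4, the gene's strand, was used (the other strand held 0.822% to 0.986%). The 4 summary lines were left out. Of 17315 genes listed, 5395 were at 0 everywhere.

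Counts were fitted with edgeR 4.0.16 in R 4.3.3 (TMM factors, filterByExpr with 10 counts and 15 in total, quasi-likelihood F test, 1 mean per medium over all 9 libraries), leaving 9130 genes over which each p was adjusted by Benjamini-Hochberg. The contrast was the mean of LPE and CPE minus T. CPM are counts scaled by library size with TMM factors, and 1 count is worth 0.227 to 0.579 CPM. Each SE comes from the F test and includes the spread between libraries, whereas the bounds cover counting error only. No pair of libraries was within sampling noise, so 9 were kept. The ratio of variance to sampling noise was 1.94 to 4.26 between T libraries, 10.9 to 17.6 in LPE and 11 to 14.2 in CPE. All media shared 1 estimate of the spread per gene in the fit. Lists are described by counts and medians without a set test. Members and lists were chosen with earlier results of these data known.

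Genes were named by this rule: among those that moved alike without overlap and with at least 5 CPM in the higher mean, the 12 largest rises and falls and the 10 most abundant of each changed at least 2-fold; up to 3 largest called rises and falls per list; the 5 largest opposite changes each way; and check genes. A few genes that it picks are not reported here. Others are stated as named after their values were seen, or are given as uncalled or untested members of a list. Of the 9130 symbols, 7052 had a promoter in the RefSeq table of GRCr8, a build other than rn6; those coordinates serve the printed stretches only. Gene length and GC content were not analysed. Scripts were tested on simulated counts.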

Additional observations from a re-analysis of the deposited data

Results flagged for a closer look

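In 15 genes named in this comparison, LPE and CPE moved in opposite directions from T or lay on opposite sides of it, and the difference between the serum-free media was called by edgeR's test of CPE against LPE, so that their average describes neither. Each p below is that adjusted p. The keratin genes Krt8 (T 263, LPE 53.9 and CPE 1123 CPM; 7.21e-09) and Krt18 (147, 62.2 and 558; 1.48e-07) were lower than T in LPE and higher in CPE. Vim showed the reverse (242, 501 and 52.7; 7.21e-09), as did Glul (1625, 2512 and 447; 3.84e-10), the Bmp modulator Bmper (64, 186 and 4.06; 1.77e-08) and the skeletal actin gene Acta1 (14.4, 91.9 and 3.52; 3.21e-06).

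Others were at 0 in one serum-free medium. With 0 counts in all LPE libraries, Pon2 had 22.5 CPM in T and 59.8 in CPE (1.54e-07), Pdpn 11.4 and 50.7 (7.55e-06), Klk6 3.71 and 39.9 (9.04e-06), Adgrl2 2.31 and 29.3 (3.85e-05), Dtx4 1.19 and 28.9 (0.000154) and Igfbp2 6.45 and 28.8 (0.000127). With 0 counts in all CPE libraries, Slc6a2 had 13.1 CPM in T and 58.5 in LPE (4.61e-07), Dpysl4 4.1 and 26.7 (0.00019) and Cryab 3.15 and 18.4 (0.000443). In T, 3 counts per library are worth 1.59 CPM, so Dtx4 lay below that level there and Adgrl2 near it. Klk6, Dpysl4 and Cryab were low in T too. Falls to 0 from such levels rest on few counts.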

How the results depend on the processing

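At an adjusted p under 0.01, 2034 genes were called (1000 lower) and 889 moved alike (542 higher, 347 lower). Fitting the 6 serum-free libraries as 1 group called 2026 genes, 908 of them lower. That fit puts the difference between the media into the spread, and it turned the sign of 6 named genes: Vim 0.193, Igfbp2 1.162, Pdpn 1.15, Pon2 0.413, Slc6a2 1.154 and Bmper 0.564 (log2). Leaving out 1 library at a time gave 2146 to 3399 calls (1083 to 1677 higher, 1058 to 1722 lower) and 1023 to 1598 genes that moved alike (608 to 927 higher, 408 to 671 lower). Fewer genes fell alike without a T library (415, 426 and 408 without replicates 1, 2 and 3). With no limit on the difference between media 1606 genes would count as moved alike, and with LPE and CPE required not to differ by the test 1311.

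Other normalizations, filters, DESeq2, limma-voom, both strands and equal depth kept these counts within 1.5 times, and 1234 (limma-voom) to 1505 (DESeq2) of the 1510 genes moved alike again in the alternatives that used all libraries and the same genes. Higher genes were 48.9% of the calls, and 39.2% with limma-voom. Replicate numbers did not pair the samples (correlations of deviations -0.027 to 0.012); with a replicate block 2944 genes were called (1413 higher, 1531 lower) and 1428 moved alike (789 higher, 639 lower). Over the 192 named genes called in the main fit and all settings, 3423 of 3624 results kept direction and side, 195 lost the call and 6 reversed. Of the 192 genes, 61 lost the call or reversed in at least 1 setting. The T libraries had the fewest reads. For genes at 0 without serum the bounds cover counting error only: serum-free libraries had 26 to 92 genes with exactly 1 count against 511 to 791 in T, a difference whose part was not tested.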

Other observations

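Outside the groups above, 3 of 8 tested retinoid genes were called lower and 1 higher, beside 17.2% and 16.5% of all genes tested. The higher one was Stra6, the receptor for retinol uptake, which had 66, 57.3 and 64.2 CPM in T, 135, 129.9 and 121 in LPE and 93.8, 93.8 and 118 in CPE and was 1.83-fold higher (log2 fold change 0.87 ± 0.16 SE, adjusted p = 0.000572). Cyp26a1, which degrades retinoic acid, had 64.9, 89.2 and 60.9 CPM in T, 0, 8.08 and 0 in LPE and 37.2, 24.8 and 46.7 in CPE, below T in every serum-free library. CPE against T was not called (log2 fold change -0.99, adjusted p = 0.256), and CPE lay above LPE (adjusted p = 0.0033), so the call rests on LPE. Interferon genes gave 2 higher (1 without any 1 T library, LPE replicate 3 or CPE replicate 1) and 1 lower of 5 tested, and Stat2, a mediator of type I interferon signalling, moved alike with 17.5, 9.27 and 8.37 CPM in T, 41.2, 59.4 and 27.2 in LPE and 47.8, 33.6 and 43.5 in CPE (3.6-fold, adjusted p = 0.000879). Of 17 insulin, Igf and Foxo genes, 6 were called higher and 1 lower, the last not without T replicate 1 or 2 or any 1 LPE library, and 1 moved alike, Txnip, a thioredoxin-binding protein that responds to glucose, named after its values were seen (23.5, 13.3 and 14.9 CPM in T, 66.2, 46.9 and 59.9 in LPE and 58.1, 49.97 and 47.4 in CPE). Igf2r had 18, 8.69 and 15.3 CPM in T, 16.6, 32.6 and 34 in LPE and 459, 427 and 684 in CPE, with CPE above LPE (adjusted p = 4.24e-08). 

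The E-box letters CACGTG, on either strand, were in 14.4% of 536 promoters of genes that fell alike, 9.94% of 654 that rose alike and 9.88% of 7052 of genes tested, a description with no test.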
